A study of Drosophila melanogaster with 4 samples.

Results

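Odorant-binding proteins (Obp) were examined in heads of unmated Drosophila melanogaster males fed tetraethylammonium chloride (TEA). Members were all array probes whose platform gene symbol starts with Obp and a number and letters, kept where at least 3 of 4 arrays held a value. This gave 13 probes for 9 genes, out of 32 Obp probes for 19 genes on the array. In the whole table, 3150 probes met the same minimum, and those with 1 symbol stood for 1379 genes. Flies of the Oregon-R wild-type strain, 3 to 4 days old at the start, received either 16 mg/ml TEA in normal food or normal food alone for 7 days, in vials of 30. TEA is a quaternary ammonium ion that closes off the pore of potassium channels. Total RNA came from 8 pools of frozen heads, and each of 4 biological replicates set 1 TEA pool against 1 control pool on a 2-colour cDNA array. TEA carried Cy5 in replicates 1 and 2 and Cy3 in replicates 3 and 4. A head holds the antennae and mouthparts together with brain, eyes, fat body and muscle, so the arrays measured the mixture of all these tissues.

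Odorant-binding proteins are small secreted carriers folded from helices held by disulfide bonds. Support cells around olfactory and taste neurons release them into the fluid that bathes the sensory dendrites, where they bind hydrophobic odorants, tastants and pheromones. Several members of the family are also made outside chemosensory organs, in glia, fat body or the male reproductive tract. In whole heads, fewer cells of a type and less RNA per cell cannot be told apart.

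Each value is a log2 ratio of TEA over control, so 0 means equal signal, and each array was centred on the median of its probes. No label states which channel was on top of the deposited ratio. It was read as Cy5 over Cy3, which is likely because Cy5 is the first channel and the labels order the scanner wavelengths 635/532, red before green, in their quality filter. Replicates 3 and 4 were therefore sign-reversed. With the channels the other way round throughout, every sign given here would turn. The arrays held 6252, 6212, 5913 and 5445 values over 27648 spots in replicates 1 to 4, and their number limits the precision. The table holds ratios without signal intensities, so levels of different Obp genes cannot be ordered.

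The first question was which members of the family gave a usable signal in the head. Of the 32 Obp probes, 13 (40.6%) had a value on at least 3 arrays, against 19.1% of the 7558 probes with 1 gene symbol and 22.8% of all 13824 probes. Another 18 Obp probes (56.2%) had no value on any array, against 80.6% of probes with 1 symbol. The measured genes were Obp8a, Obp19c, Obp19d, Obp44a, Obp47a, Obp56d, Obp56g, Obp56h and Obp57c. The other 10 genes with a probe had no value on any array: Obp19a, Obp19b, Obp56e, Obp59a, Obp83cd, Obp84a, Obp99a, Obp99b, Obp99c and Obp99d. Among them, Obp59a takes part in humidity sensing and Obp99b is known from the fat body of the male head. The single probe for lush, the odorant-binding protein for the male pheromone cis-vaccenyl acetate, whose symbol lies outside the rule, was also without a value on any array. Of 51 Obp genes in the Release 6 gene table, 19 had a probe of their own, 3 appeared in probes annotated with several genes, and 29 were not represented. The authors had removed spots that failed their quality limits, so an empty probe does not show that its gene was not expressed. Of all 13824 probes, 10609 had no value, 1 had a value on exactly 1 array and 64 on exactly 2. An empty probe may therefore have had usable spots on 1 or 2 arrays before filtering.

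**Figure D1:**
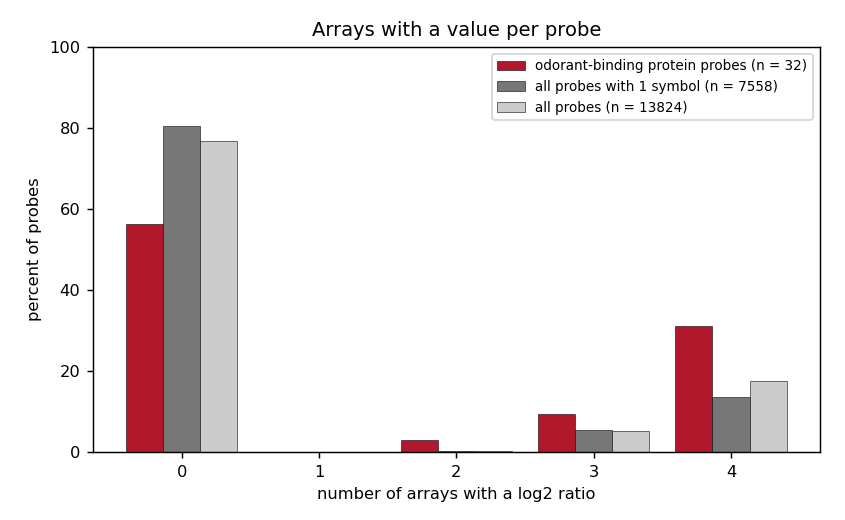
Percent of probes (vertical axis) by the number of arrays on which they held a log2 ratio (horizontal axis), for the 32 Obp probes, the 7558 probes with 1 gene symbol and all 13824 probes. Obp probes without any value made up 56.2%, against 80.6% of probes with 1 symbol.

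The comparison of heads from TEA-fed and control flies asked whether TEA feeding altered Obp transcripts. No Obp probe passed the threshold: 0 of 13 had an adjusted p under 0.05 by limma, and 0 of 13 an unadjusted p under 0.05. Over the whole table limma called 0 of 3150 probes (0%), with 309 (9.81%) at an unadjusted p under 0.05 and a smallest adjusted p of 0.0724. Adjusted p-values of the Obp probes lay between 0.526 and 0.964. All 13 of their 95% intervals included 0, with a median half-width of 0.451 on the log2 scale, which corresponds to a 1.37-fold difference. For a typical Obp probe, a smaller mean in either direction would not exclude 0 even without adjustment. The intervals are not adjusted for the 3150 tests, so larger differences could also miss the threshold. A missed threshold therefore does not show equal levels. With arrays left uncentred limma called 20 of 3150 probes (0.635%), and with arrays also scaled to a common spread 16 (0.508%), of which 0 were Obp probes in either case.

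Obp means were of similar size to those of all probes, while Obp values spread more over the arrays. Of 49 single-array values, 38 lay within 0.5 of 0, and 10 of the 13 means lay within 0.3 of 0. The shares of all probes inside these limits were not counted, so these counts do not compare the family with the table. Means were above 0 for 6 probes and below 0 for 7, with a median of -0.02, against a median of 0.00 over all 3150 probes. The median size of the mean regardless of sign was 0.154 for Obp probes and 0.138 for all probes. Arrays varied more for the family than for the table: the median SD over arrays was 0.42 for Obp probes and 0.25 for all probes, and 11 of the 13 Obp probes lay above the median of all probes. Probes of 1 gene and neighbouring table positions are not independent, so these counts are a description.

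**Figure D2:**
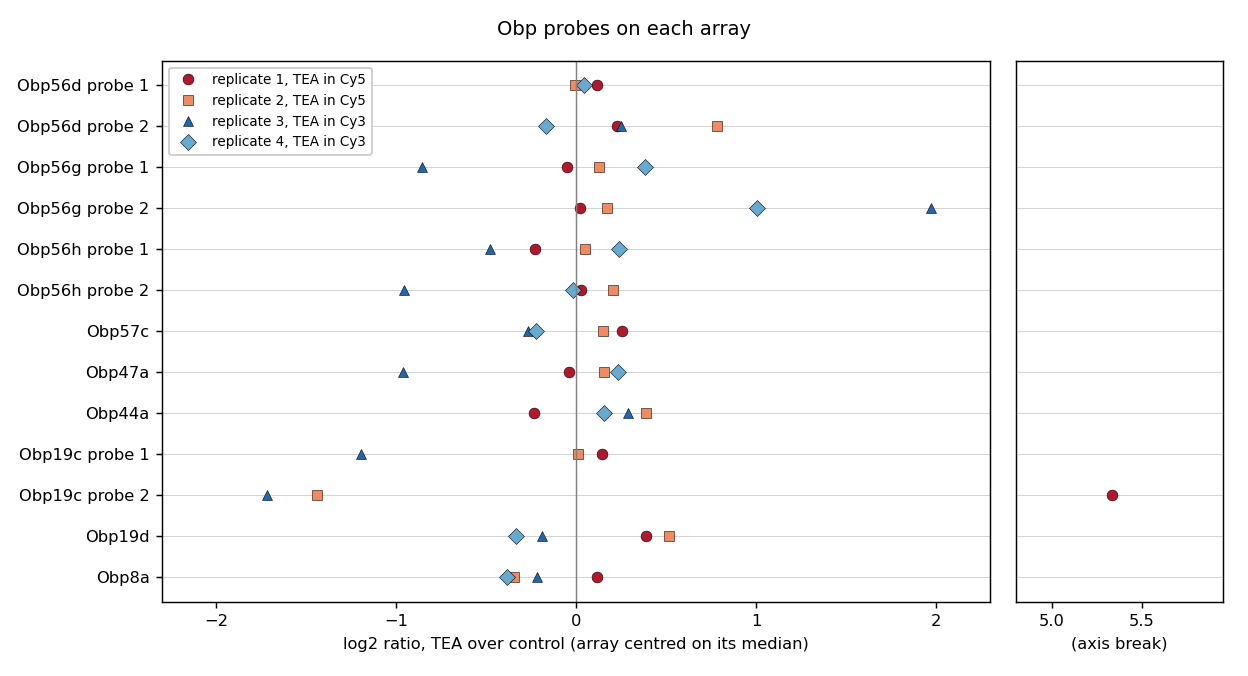
Log2 ratio of TEA over control (horizontal axis, arrays centred on their medians, with an axis break before the right panel, both panels to the same scale) for each of the 13 Obp probes (rows) on the arrays of replicates 1 to 4 (symbols). Replicate 3 is the lowest array for 7 probes and the highest for Obp56g probe 2, and 1 value of Obp19c probe 2 lies at 5.34.

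Obp56d, Obp56g and Obp56h belong to 1 gene cluster: Obp56g and Obp56h are adjacent protein-coding genes in the Release 6 table, and 4 protein-coding genes lie between Obp56d and Obp56g. Each of these 3 genes had 2 measured probes, numbered here by their order in the table. Obp56g is a carrier also known from the male ejaculatory bulb. Its probe 2 (spots 25027 and 25028) stood at 0.02, 0.17, 1.97 and 1.00 in replicates 1 to 4. It was above 0 on every array, and its values in replicates 3 and 4 were far above those in replicates 1 and 2. Its mean was 0.79 ± 0.35 (SE, n = 4; limma adjusted p = 0.526), with a 95% interval of -0.09 to 1.67, and corresponded to a ratio of 1.73-fold. A sign above 0 on every measured array occurred in this 1 of 13 Obp probes, against 339 of 3150 probes (10.8%). That count depended on the setting: uncentred, it was 0 of 13, against 305 of 3150 (9.7%). The value of Obp56g probe 2 in replicate 1 was then -0.07. With replicates 3 and 4 not sign-reversed it was 4 of 13, against 367 of 3150 (11.65%). The 4 were Obp57c, Obp19d, Obp56h probe 2 and Obp19c probe 1. A sign below 0 on every measured array occurred in 0 of 13 Obp probes, against 382 of 3150 (12.1%). The value in replicate 3 came from 1 spot, since its duplicate was empty.

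Obp56g probe 1 (spots 20429 and 20430) did not follow probe 2. It stood at -0.05, 0.13, -0.86 and 0.38 in replicates 1 to 4, with a mean of -0.10 ± 0.22 (SE, n = 4; limma adjusted p = 0.888). Probe 1 lay below probe 2 on every array: the difference, probe 1 minus probe 2, was -0.07, -0.04, -2.83 and -0.62 in replicates 1 to 4. Averaged over both probes, Obp56g stood at -0.02, 0.15, 0.56 and 0.69, with a mean of 0.35 ± 0.14 (SE, n = 4; limma adjusted p = 0.383 over 1379 genes). Its unadjusted limma p was 0.0345, with a 95% interval of 0.03 to 0.66 that excludes 0, and it was the smallest p of the 9 Obp genes. No other Obp gene had an unadjusted p under 0.05, against 155 of all 1379 genes. The averaging joins probes on opposite sides of 0 in replicate 3, at -0.86 and 1.97, and the interval leaves out that disagreement. The interval of each probe alone included 0. None of the 9 Obp genes passed after adjustment, while 8 of 1379 genes (0.58%) did.

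Obp56h, whose reduced expression is known to alter mating behaviour and male cuticular pheromones, had values on both sides of 0 at both probes. Probe 1 (spots 20419 and 20420) stood at -0.23, 0.05, -0.48 and 0.24 in replicates 1 to 4, a mean of -0.10 ± 0.14 (SE, n = 4; limma adjusted p = 0.811). Probe 2 (spots 25037 and 25038) stood at 0.03, 0.20, -0.96 and -0.02, a mean of -0.19 ± 0.21 (SE, n = 4; limma adjusted p = 0.777). Replicate 3 was the lowest array at both probes, and the probes differed by at most 0.48 on any array. The duplicate spots of probe 1 differed by 0.84 in replicate 4, at 0.66 and -0.18, so the sign of that value depended on the spot.

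Obp56d, a carrier found in antennae and taste organs, had a narrow and a wide probe. Probe 1 (spots 415 and 416) stood at 0.11, -0.01 and 0.04 in replicates 1, 2 and 4, a mean of 0.05 ± 0.11 (SE, n = 3; limma adjusted p = 0.888). Its SD of 0.06 ranked 3057 of 3150 from the largest, so it was among the least variable probes of the table. Probe 2 (spots 10083 and 10084) stood at 0.23, 0.78, 0.25 and -0.17 in replicates 1 to 4, a mean of 0.27 ± 0.17 (SE, n = 4; limma adjusted p = 0.623). The probes differed most in replicate 2, where probe 1 minus probe 2 was -0.79. Another Obp56d probe had no value on any array.

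Obp19c and Obp19d are adjacent genes as well. Obp19d encodes a secreted carrier of both the antennae and the taste organs. Its tested probe (spots 24771 and 24772) stood at 0.39 and 0.51 in replicates 1 and 2 and at -0.19 and -0.34 in replicates 3 and 4, a mean of 0.09 ± 0.18 (SE, n = 4; limma adjusted p = 0.869). After centring, the sign of Obp19d split by the dye that carried TEA; uncentred, the value of replicate 3 was 0.05. A second Obp19d probe had values only in replicates 3 and 4 and was not tested; it stood at 0.22 and -0.50.

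Obp19c gave the widest readings of the family. Probe 1 (spots 845 and 846) stood at 0.14, 0.01 and -1.19 in replicates 1 to 3, a mean of -0.35 ± 0.31 (SE, n = 3; limma adjusted p = 0.717). Probe 2 (spots 11203 and 11204) stood at 5.34, -1.44 and -1.72, a mean of 0.73 ± 1.58 (SE, n = 3; limma adjusted p = 0.889). The value of 5.34 was the highest of all tested probes in replicate 1 and came from 1 spot, its duplicate being empty. The SD of Obp19c probe 2, 4.00, was the largest of all 3150 probes. Without replicate 1 the mean of Obp19c probe 2 became -1.58 (limma adjusted p = 0.354), so the value of replicate 1 set the direction. The probes of Obp19c differed by up to 5.19 on an array, and neither had a value in replicate 4.

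The remaining members had 1 tested probe each. Obp44a, a protein of brain glia that binds fatty acids, stood at -0.23, 0.39, 0.29 and 0.15 in replicates 1 to 4, a mean of 0.15 ± 0.13 (SE, n = 4; limma adjusted p = 0.706). It was above 0 on 3 of 4 arrays, on both dye orientations, and its duplicate spots differed by at most 0.15. Obp8a was below 0 on 3 of 4 arrays, at 0.12, -0.35, -0.22 and -0.38, a mean of -0.21 ± 0.12 (SE, n = 4; limma adjusted p = 0.598). Uncentred, the Obp8a value in replicate 3 was 0.025. Its mean over arrays, after centring, kept its sign when any 1 replicate was left out, between -0.32 and -0.15. The means of Obp44a, both Obp56d probes and Obp56g probe 2 kept theirs too. Obp57c had the mean closest to 0, -0.02 ± 0.13 (SE, n = 4; limma adjusted p = 0.964), from 0.26, 0.15, -0.27 and -0.22. As for Obp19d, its sign split by the dye that carried TEA. Obp47a stood at -0.04, 0.15, -0.97 and 0.23, a mean of -0.15 ± 0.22 (SE, n = 4; limma adjusted p = 0.818), with replicate 3 far below the other arrays.

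**Figure D3:**
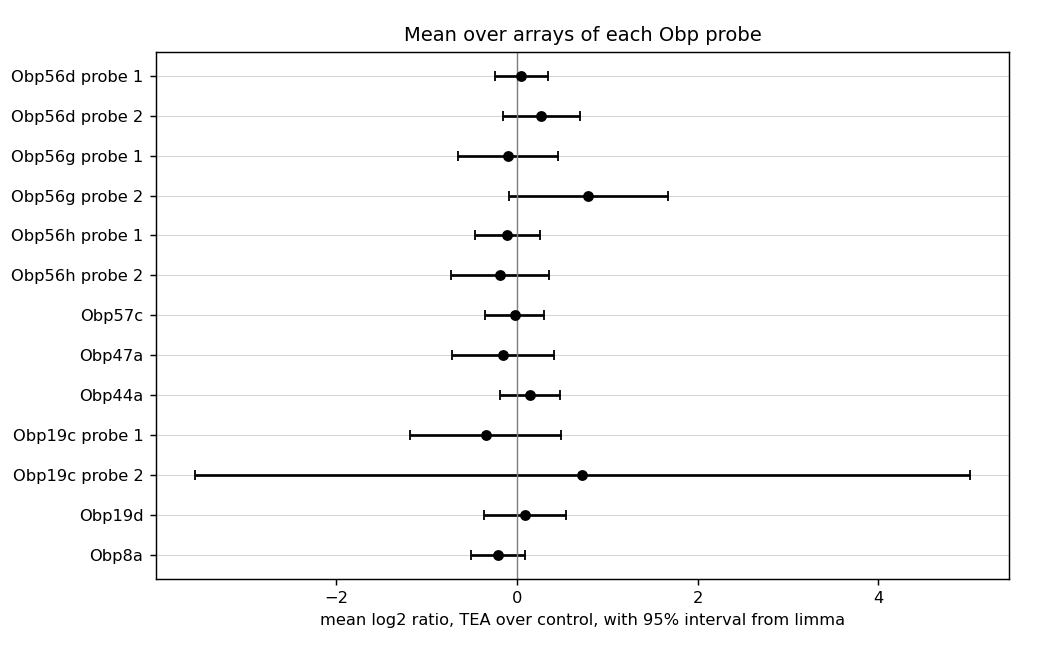
Mean log2 ratio of TEA over control (horizontal axis) with its 95% interval from limma for each of the 13 Obp probes (rows), over 4 arrays or, for Obp56d probe 1 and both Obp19c probes, 3 arrays. All 13 intervals include 0, and that of Obp19c probe 2 runs from -3.57 to 5.02.

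Replicate 3 stood apart from the other arrays within the family. The Obp median was 0.11, 0.15, -0.37 and 0.04 in replicates 1 to 4, against 0.00 for all tested probes on each array. In replicate 3, 9 of 12 Obp probes were below 0, and 5 lay below -0.5, against 387 of 2915 probes (13.3%). The 5 were both Obp19c probes, Obp56g probe 1, Obp47a and Obp56h probe 2, and this limit was chosen after the values were seen. Replicate 3 was the lowest array for 7 of 12 Obp probes, against 27.4% of 2915. Without replicate 3 the mean turned positive for 6 probes, to 0.15 for Obp56g probe 1, 0.12 for Obp47a, 0.08 for Obp19c probe 1, 0.07 for Obp56h probe 2, 0.06 for Obp57c and 0.02 for Obp56h probe 1. Obp56g probe 2 kept its sign, at 0.40 in place of 0.79. Before centring and turning, the array of replicate 3 had a median of -0.248, against -0.09, -0.077 and -0.054 in replicates 1, 2 and 4.

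The dye orientation was compared next, because a signal that follows the dye would show as opposite signs in the turned arrays. Values were higher with TEA in Cy5 than with TEA in Cy3 for 11 of 13 Obp probes, against 49.7% of all 3150 probes. The median difference was 0.42 for Obp probes and 0.00 over all probes. Replicate 3 carried this difference. Against replicate 4 alone, values with TEA in Cy5 were higher for 6 of 11 Obp probes (48.9% of 2706 probes over the table), with a median difference of 0.01. Against replicate 3 alone they were higher for 10 of 12 (51.8% of 2915 over the table), with a median difference of 0.56. These comparisons by array were added after the values were seen. No Obp probe passed: limma called 0 of 13 for the dye term, and 0 of 3150 (0%) over the table, where the smallest adjusted p was 0.206. At an unadjusted p under 0.05 there were 4 of 13 Obp probes, against 498 of 3150 (15.8%). Obp19d averaged 0.45 with TEA in Cy5 and -0.26 with TEA in Cy3, a difference of 0.71 ± 0.16 (SE, n = 4; limma adjusted p = 0.287). Obp57c averaged 0.20 with TEA in Cy5 and -0.25 with TEA in Cy3, a difference of 0.45 ± 0.15 (SE, n = 4; limma adjusted p = 0.301). Obp56g probe 2 went the other way, at 0.10 with TEA in Cy5 and 1.49 with TEA in Cy3, a difference of -1.39 ± 0.37 (SE, n = 4; limma adjusted p = 0.287). The fourth, Obp19c probe 1, rested on a single array with TEA in Cy3. Both Cy5 arrays above 0 and both Cy3 arrays below 0 were seen for 3 of 10 Obp probes with 4 values, Obp19d, Obp57c and Obp56h probe 2, against 280 of 2437 probes (11.5%). Uncentred, this split was seen for 1 of 10, Obp57c, against 95 of 2437 (3.9%). After centring, the opposite split was seen for 0 of 10, against 251 of 2437 (10.3%). If replicates 3 and 4 had been deposited as TEA over control already, 9 of 13 means would change sign. Obp56g probe 2 would then stand at -0.70, Obp8a at 0.09 and Obp19c probe 1 at 0.45, with 0 of 13 Obp probes called and 0 of 3150 overall (303 at an unadjusted p under 0.05).

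**Figure D4:**
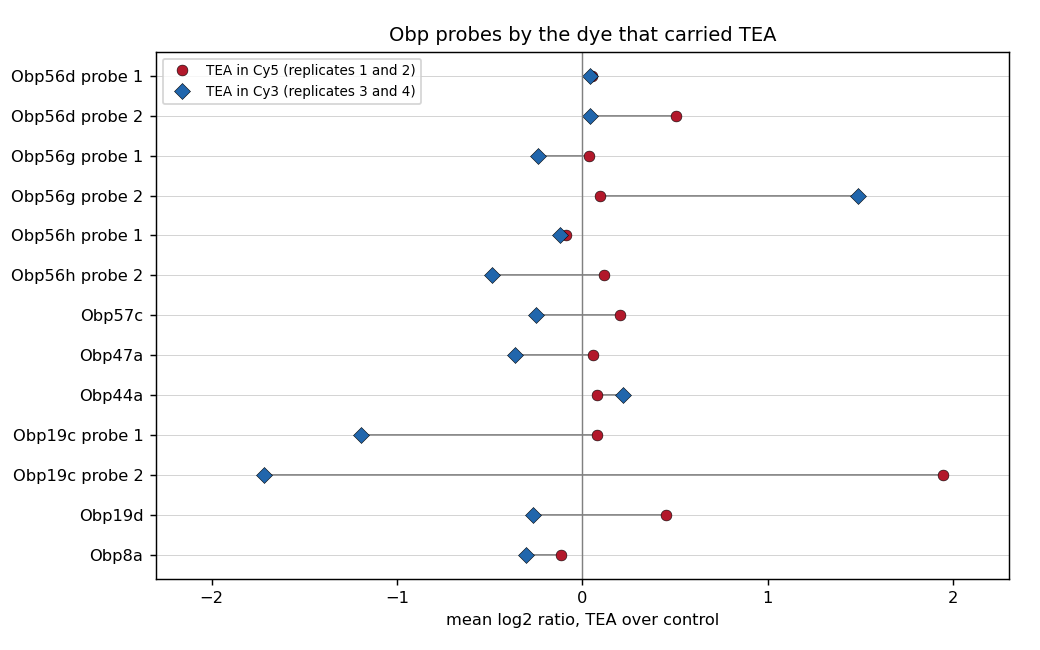
Mean log2 ratio of TEA over control (horizontal axis) for each of the 13 Obp probes (rows), over the arrays with TEA in Cy5 (circles) and with TEA in Cy3 (diamonds), joined by a line. The circle lies to the right of the diamond for 11 probes, and the same order held for 49.7% of all tested probes. Against replicate 4 alone it held for 6 of 11 Obp probes and 48.9% of all. Obp56g probe 2 has the widest gap in the other direction, at 0.10 with TEA in Cy5 and 1.49 with TEA in Cy3.

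Obp probes were also set beside the probes listed next to them, and resemblance varied. The order is that of the table, and where each probe was printed on the slide was not analysed here. Of 14 pairings of an Obp probe with a tested neighbour, 5 had the same sign on every shared array, against 28.5% of 1339 neighbouring pairs over the whole table. The largest difference on an array had a median of 0.36 over the 14 pairings and 0.35 over all pairs. Obp56g probe 1 and Obp47a, which count in both directions, hold consecutive positions and had the same sign on 4 of 4 arrays, within 0.15 of each other on each. The unnamed position before Obp56h probe 1 stood at -0.30, 0.08, -0.89 and 0.61 in replicates 1 to 4, with the signs of Obp56h on every array. CG2209, directly after Obp8a, stood at 0.14, -0.30 and -0.37 in replicates 1 to 3, close to Obp8a. Obp19c probe 1 precedes a probe annotated with both Obp57e and CG30148, which stood at 0.20, -0.28 and -1.28 in replicates 1 to 3, low in replicate 3 like Obp19c but opposite in sign in replicate 2. Other neighbours differed. The unnamed position after Obp19c probe 2 stood at -1.13, -2.86 and -0.99 in replicates 1 to 3, far from its 5.34 in replicate 1. The unnamed position before Obp56g probe 2 stood at -0.05, 0.10, -0.11 and 1.16 in replicates 1 to 4, without the high value of replicate 3. The position after Obp44a stood at 0.60 in replicate 1, against -0.23 for Obp44a. The part of table position in these values was not tested.

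The adjacent genes of the cluster were set side by side. Obp56g probe 1 and Obp56h probe 1 had the same sign on 4 of 4 arrays, with a largest difference of 0.38. Obp56g probe 2 and Obp56h probe 2, by contrast, shared a sign on only 2 of 4 arrays and differed by up to 2.93. Obp56g probe 2 with Obp56h probe 1 also shared 2 of 4 signs, differing by up to 2.45. Obp56g probe 1 with Obp56h probe 2 shared 2 of 4 signs, differing by up to 0.40. The pair that shared all signs lies at table positions 10215 and 10210, with Obp47a at 10216, and the part of position was not tested. Obp19c probe 1 and Obp19d shared a sign on 3 of 3 arrays and differed by up to 1.00, while Obp19c probe 2 and Obp19d shared a sign on 2 of 3 arrays and differed by up to 4.95. Pairs of Obp probes that are neither adjacent genes, probes of 1 gene nor consecutive positions shared all 4 signs in 4 of 38 cases with 4 arrays, among them Obp57c with Obp19d and Obp56h probe 1 with Obp47a.

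The probes most like Obp56g probe 2, which had the smallest p of the Obp probes with 4 values, were sought among the other 1033 single-gene probes with 4 values. Likeness was the root mean square difference of the log2 ratios over the 4 arrays. The nearest were CG2765 (0.281), mub, which encodes an RNA-binding protein (0.351), Tdg, a DNA repair glycosylase (0.395), mlt (0.415) and MED26, a subunit of the Mediator complex (0.416). CG2765 stood at 0.01, 0.00, 1.53 and 0.70 in replicates 1 to 4. All of these probes lay between 1.28 and 1.67 in replicate 3, where the value of Obp56g probe 2, 1.97, came from 1 spot. The part of that value in the likeness was not tested. No Obp probe was near: Obp44a ranked 236, and Obp56g probe 1, of the same gene, ranked 994.

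Other chemosensory genes gave few measured probes, and 0 of their 7 tested probes passed. An unadjusted limma p under 0.05 was seen for 1 of the 7, against 309 of 3150 probes (9.81%). Among odorant receptors, 1 of 60 genes was measured: Or33a stood at 0.08, 0.32 and -0.44 in replicates 1 to 3, a mean of -0.01 ± 0.19 (SE, n = 3; limma adjusted p = 0.989). Among ionotropic receptors, 1 of 66 was measured, Ir47a, at -0.03, 0.19 and 0.46 in replicates 1, 2 and 4, a mean of 0.21 ± 0.14 (SE, n = 3; limma adjusted p = 0.653). None of 60 gustatory receptors and none of 10 odour-degrading enzymes had a tested probe. Of 35 other soluble carriers 2 were measured, the sterol-binding proteins Npc2b at 0.16 ± 0.09 and Npc2a at 0.14 ± 0.12 (SE, n = 4 each). Among olfactory signalling proteins, the arrestin Arr1, which also serves photoreceptors, stood at 0.22, 0.30, 0.16 and 0.78, a mean of 0.37 ± 0.13 (SE, n = 4; limma adjusted p = 0.472). The G protein subunit Galphas stood at -0.04 ± 0.11 (SE, n = 4). The transcription factor svp was the only measured factor of olfactory neuron fate, at -0.06 ± 0.16 (SE, n = 4).

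Markers of the cells that a head sample can hold were read beside these values. Defining markers of chemosensory neurons, sensillum support cells, other neurons and the male reproductive tract had no tested probe, so the cells that secrete most Obp were not tracked by a marker. For the other types the median was 0.42 over 1 glial probe, 0.39 over 6 head fat body probes, 0.04 over 3 photoreceptor probes, 0.04 over 2 muscle probes, -0.01 over 1 haemocyte probe, -0.07 over 3 cuticle probes and -0.18 over 1 midgut probe. None of these 17 probes passed, and 3 had an unadjusted p under 0.05, against 309 of 3150 (9.81%) over the whole table. The 3 were the glial probe, Gs2, and both fat body probes of apolpp. Head fat body means were above 0 for 5 probes and below 0 for 1, over 5 genes. Yp2 at 0.02 and Lsp2 at -0.03 stood near 0, while FASN1 stood at 0.41 and bgm at 0.37. Both probes of the lipoprotein apolpp were above 0 on every array and had the largest means of the list. These were 1.01 ± 0.14 and 0.49 ± 0.12 (SE, n = 4 each), with limma adjusted p of 0.106 and 0.279. The fat body markers did not share 1 order of the arrays. Of their 5 probes with 4 values, 3 were lowest in replicate 3, while the lipoprotein apolpp was highest there at 1 probe, at 0.90, 0.80, 1.47 and 0.89 in replicates 1 to 4, and lowest in replicate 4 at the other, at 0.63, 0.71, 0.40 and 0.21. Their part in the Obp values was not tested.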

How the data were processed

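The authors deposited log2 ratios, with a column for each array. Per the labels' design text, the authors quantified spots in GenePix Pro 6.0, normalized ratios in Acuity 4.0 and kept spots with under 3% saturated pixels, signal-to-noise of 3 or more and a pixel regression R2 of 0.6 or more. Analysable spots in at least 3 replicates went on to SAM 3.0. Neighbouring duplicate spots were averaged to a probe, values at the ceiling of 16.61 were set to missing, replicates 3 and 4 were sign-reversed and arrays were centred. The platform annotation gave gene symbols, updated by identifier through the RefSeq Release 6 gene table, where 7447 of 7558 single-symbol probes matched, all 32 Obp probes with their symbol unchanged.

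Probe means were tested against 0 with limma 3.58.1 in R 4.3.3 (two-sided, Benjamini-Hochberg over 3150 probes, threshold 0.05), checked on simulated data. Replicates are pools from separate vials. Members, gene lists and alternatives were chosen with earlier results of these data known. All Obp probes were named, with the 5 probes nearest to the Obp probe with the smallest p. Up to 4 measured members of each other list were named, and all 5 measured genes of the head fat body list. A choice made after the values were seen is stated where it is used. Alternatives covered array scaling, sign reversal, each replicate, dye, spots, genes, missing values and moderation.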

Additional observations from a re-analysis of the deposited data

How the results depend on the processing

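Under all 15 alternatives, 0 Obp probes were called by limma. The Obp median lay between -0.24 (TEA in Cy3 alone) and 0.21 (replicates 3 and 4 not sign-reversed), moving by less than the SD of its array medians, 0.242. Calls over the whole table numbered 20 uncentred, 16 centred and scaled, 8 with probes of a gene averaged, and 0 to 1 with a replicate left out. Without a replicate, means ranged from -1.58 to 1.95 for Obp19c probe 2, -0.59 to 0.077 for Obp19c probe 1, -0.048 to 0.24 for Obp19d, -0.28 to 0.12 for Obp47a, -0.26 to 0.15 for Obp56g probe 1, -0.22 to 0.020 for Obp56h probe 1, -0.32 to 0.072 for Obp56h probe 2 and -0.12 to 0.059 for Obp57c. Signs turned elsewhere too. With replicates 3 and 4 not sign-reversed, Obp19c probe 1 stood at 0.45, Obp44a at -0.071, Obp47a at 0.21, Obp56g probe 1 at 0.14 and probe 2 at -0.70, Obp56h probe 1 at 0.015 and probe 2 at 0.30, Obp57c at 0.22 and Obp8a at 0.094. With TEA in Cy5 alone, Obp19c probe 1 stood at 0.077, Obp47a at 0.058, Obp56g probe 1 at 0.038, Obp56h probe 2 at 0.12 and Obp57c at 0.20. With TEA in Cy3 alone, Obp19d stood at -0.26, and 3 probes gave no value. Uncentred, Obp57c stood at 0.0097. Added after the data were seen, leaving out replicate 3 gave 6 Obp probes of 11 higher with TEA in Cy5 and leaving out replicate 4 gave 10 of 12, against 11 of 13. Over all tested probes these shares were 48.9%, 51.8% and 49.7%. Obp probes above 0 on every array numbered 0 of 13 uncentred and 4 of 13 with replicates 3 and 4 not sign-reversed, against 1 of 13. Over all tested probes these shares were 9.7%, 11.65% and 10.8%. Obp probes split by dye numbered 1 of 10 in either case, against 3 of 10. Over all probes with 4 values these shares were 3.9% uncentred, 10.6% not sign-reversed and 11.5% in the main setting. Averaging the probes of a gene put Obp19c at 0.19 and Obp56g at 0.35, by construction for their probe 1. The cause of the other turns was not tested. Signal over background was not analysed here. Each array holds a TEA and a control pool, so the test of the mean ratio against 0 already uses that pairing. There is 1 group of ratios, and no further pairing was added.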

Other observations

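A pair of probes is annotated with both Obp57e and CG30148, so neither gene can be named from them. One (spots 847 and 848) stood at 0.20, -0.28 and -1.28 in replicates 1 to 3, the other (spots 6593 and 6594) at 2.28, -1.46 and -3.32. The other shares its signs on all 3 arrays with Obp19c probe 2, at 5.34, -1.44 and -1.72. Its duplicate spots differed by 1.62 in replicate 1 and by 2.55 in replicate 3. A probe annotated with Obp56b and Obp56c had no value on any array.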
